A study of Bos taurus with 20 samples.

Results

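The genes described here are 9 genes of the Hedgehog pathway, PTCH1, SMO, GLI1, GLI2, GLI3, HHIP, GAS1, BOC and CDON, taken by their symbols from the 33063 named genes of a table of raw RNA-seq counts. All 9 were listed. Of these, 8 passed the filter on low counts and were tested, and HHIP had no count in any clone.

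Hedgehog ligands bind the receptor PTCH1, which without ligand keeps the membrane protein SMO inactive. The co-receptors CDON, BOC and GAS1 help PTCH1 bind ligand, and HHIP is a membrane protein that captures ligand. Active SMO accumulates in the primary cilium and changes the processing of the transcription factors GLI2 and GLI3, after which GLI1, PTCH1 and HHIP are transcribed, so that these genes are commonly used as readouts of the pathway. Hedgehog signalling is known to restrain adipocyte differentiation in several mouse and human cell models.

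The libraries came from clonal populations of bovine mesenchymal stem cells (MSCs), each grown from a single sorted cell of an adipose tissue culture in medium with serum and bFGF. RNA was taken from undifferentiated cells. Adipogenic (A) clones were those that had formed adipocytes in both of the study's differentiation tests, and non-adipogenic (N) clones were those that had failed the first. For sequencing, the study took the 10 A clones that differentiated most strongly, with equal numbers of N clones from each animal as controls. There were 10 A and 10 N clones from 4 animals, with 1 A and 1 N clone each from animals 17 and 20, and 4 A and 4 N clones each from animals 22 and 23. Clones are named by animal and clone number, so that 22-5 is clone 5 of animal 22. Clones of 1 animal share their donor, and in such bulk samples fewer cells of a type and less RNA per cell cannot be told apart.

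The libraries held 14908802 to 43111345 counts on named genes in N clones and 14615493 to 29185355 in A clones, and the deepest library was that of N clone 22-18. Levels are given as CPM, read counts relative to library size after TMM scaling, and CPM was not corrected for gene length, so levels of different genes were not ranked. Where 2 genes were set against each other, it was as a log2 ratio within a clone, compared between clone types. The MSC markers PDGFRA, PDGFRB, ITGB1 and CD44 were present in all clones, with minima of 36.1, 59.3, 1576 and 231 CPM. The MSC markers THY1, NT5E and ENG were lowest in N clone 22-5, at 0.393, 0.506 and 19.0 CPM. The leukocyte gene PTPRC and the endothelial genes CDH5 and KDR did not exceed 0.490 CPM in any clone. Other genes of these lists were higher, and the 5 haematopoietic genes summed to 0.648 to 10.4 CPM in N and 2.74 to 11.4 CPM in A clones and the 5 endothelial genes to 1.07 to 41.1 CPM in N and 5.11 to 23.6 CPM in A clones. CD68, a lysosomal gene of macrophages, was the only gene called among the 4 of these 10 that passed the filter (higher in A clones, log2 fold change 1.06, adjusted p = 0.0157 in edgeR). N clones 22-5 and 22-9 stood apart through KRT8, a keratin of mesothelium and simple epithelia. KRT8 was at 4755 and 2715 CPM in them, at 584 and 445 CPM in A clones 22-11 and 22-16, and at most at 159 CPM in the other 16 clones. Of 7 mesothelial genes, 6 were tested, with a median log2 fold change of -1.08, and only MSLN was called, lower in A clones. The 7 genes summed to 8.80 to 9152 CPM in N and 7.71 to 1092 CPM in A clones. Of 6 mature adipocyte genes, 3 were tested, and only PLIN1 was called, higher in A clones. Of 8 proliferation genes, 4 were called lower in A clones (MKI67, TOP2A, CDK1 and BUB1) and 0 higher, with summed levels of 26.7 to 338 CPM in A and 119 to 549 CPM in N clones. Of 7 smooth muscle and pericyte genes, 6 were tested, and NOTCH3, CSPG4 and MYH11 were called higher in A clones (median log2 fold change of the 6 genes 1.48), with summed levels of 950 to 8384 CPM in A and 128 to 6129 CPM in N clones. Over all genes tested, 10.3% were called higher and 10.3% lower. The part of these marker genes in the results that follow was not tested.

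Between A and N clones, 2 of the 8 tested members passed an adjusted p of 0.05 (quasi-likelihood test of edgeR, animal as a block, Benjamini-Hochberg adjustment over the 12900 genes tested). The same was true of 20.6% of all genes tested. CDON was lower and SMO higher in A clones, against 10.3% of all genes called lower and 10.3% called higher. Only CDON among the members also passed a 2-fold change, which 5.76% of all genes did. The median log2 fold change of the 8 members was 0.03 (-0.16 to 0.29 over the alternatives), and that of all genes tested was -0.01.

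**Figure D1:**
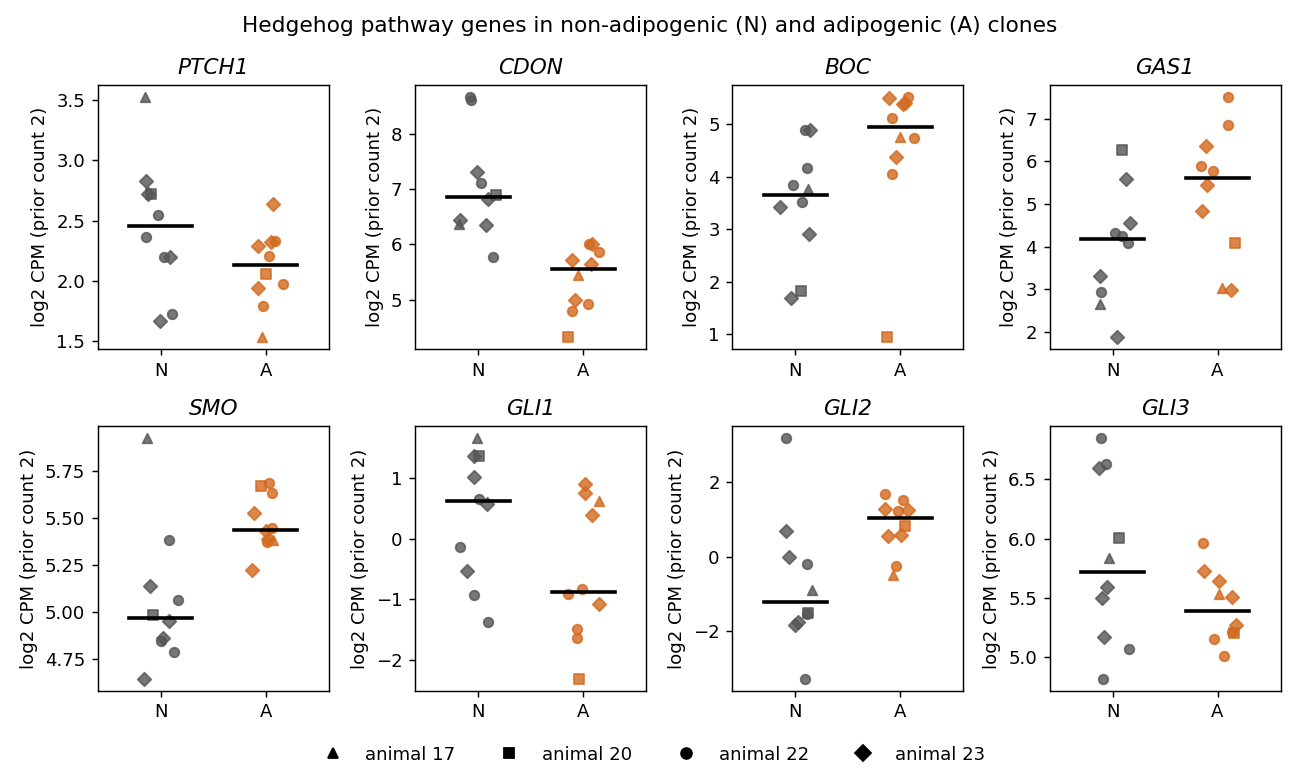
Log2 CPM (y axis, prior count 2) of the 8 tested members in 10 N and 10 A clones. Each point is a clone, its shape gives the animal and the bar is the group median. CDON was below every N clone in 7 of 10 A clones, and the groups overlapped for each of the 8 genes.

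CDON was the member with the clearest difference between clone types. This gene encodes a cell surface co-receptor of the immunoglobulin family that also binds cadherins. In N clones its level ran from 54.5 CPM in clone 22-17 through a median of 115 to 405 CPM in clone 22-5. In A clones it ran from 19.8 CPM in clone 20-106 through a median of 46.8 to 63.8 CPM in clone 22-11. The ranges overlapped only through N clone 22-17, and in 7 of 10 A clones CDON was lower than in any N clone. Means were 163 ± 127 CPM for N and 44.1 ± 15.9 CPM for A (SD over 10 clones each). CDON fell by 1.79 on the log2 scale in A clones (SE 0.35, adjusted p = 0.0034 in edgeR's quasi-likelihood test), which is 3.46-fold lower, and it was lower in A clones in 4 of 4 animals. The 2 highest N values, 405 and 390 CPM, belonged to clones 22-5 and 22-9, the clones of highest KRT8. Without these 2 clones the log2 fold change was -1.26 (SE 0.26, adjusted p = 0.0071 in edgeR), and with A clones 22-11 and 22-16 also left out it was -1.44 (SE 0.25, adjusted p = 0.0070 in edgeR). The call did not hold when the 8 clones of animal 23 were left out (adjusted p = 0.0813 in edgeR), in animal 22 alone (0.115), in counts summed per animal and condition (0.240) or in a test against a 2-fold change (0.263).

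The 3 genes whose levels followed CDON most closely over the 20 clones, once the means of condition and animal were removed, were COL4A5, LOC101905319 and KRT19 (Pearson's r = 0.88, 0.87 and 0.86). COL4A5 encodes a basement membrane collagen chain and KRT19 a keratin of simple epithelia. KRT19 ran from 0 to 2252 CPM in N clones and from 0 to 233 CPM in A clones. The log2 fold changes of COL4A5, LOC101905319 and KRT19 were 2.02, -0.65 and 1.16 (adjusted p = 0.379, 0.702 and 0.806 in edgeR). The likeness is a description over clones of which 4 held KRT8 at 445 to 4755 CPM, and A clone 23-62 held it at 159 CPM. The likeness was given no test.

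BOC, a co-receptor related to CDON in sequence, showed an estimate of the opposite sign. Its level in N clones was lowest in clone 23-74 at 3.11 CPM, with a median of 12.4 and a maximum of 29.4 CPM in clone 22-18. In A clones it was lowest in clone 20-106 at 1.81 CPM, with a median of 30.7 and a maximum of 45.6 CPM in clone 22-11. A total of 5 A clones exceeded every N clone, and 1 A clone, 20-106, lay below all of them. The log2 fold change was 0.98 (SE 0.36, adjusted p = 0.0657 in edgeR) and missed the threshold. Mean log2 CPM was higher in A than in N clones of animals 17, 22 and 23, and lower in animal 20. With the clones of animal 20 left out, the log2 fold change was 1.15 (adjusted p = 0.0369 in edgeR). BOC was called by DESeq2's Wald test with the animal block as well (adjusted p = 0.0230). It was not called by limma-voom (adjusted p = 0.160), and its estimate was 0.56 without animal 23 (adjusted p = 0.390) and 0.68 in counts summed per animal and condition (adjusted p = 0.479, both edgeR). In the ARS-UCD2.0 annotation BOC overlaps GTPBP8 and CFAP44. GTPBP8 had a log2 fold change of 0.16 (adjusted p = 0.489 in edgeR) and CFAP44 had at most 83 counts in a clone, and how reads on overlapping genes were assigned is not given in the sources used here.

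GAS1, a lipid-anchored co-receptor first described in growth-arrested fibroblasts, spanned a 21.8-fold range in N clones and a 23.6-fold range in A clones. N clones held 3.54 to 77.4 CPM with a median of 17.9, and A clones held 7.75 to 183 CPM with a median of 49.2. The groups overlapped over most of this range, and 3 A clones exceeded every N clone. The 2 highest were 22-11 and 22-16 at 183 and 115 CPM, the A clones of highest KRT8. The log2 fold change was 1.36 (SE 0.60, adjusted p = 0.112 in edgeR), which missed the threshold. In animal 22 the 4 A clones held 54.7 to 183 CPM and the 4 N clones 7.48 to 20.0 CPM. In animal 23 the ranges were 7.75 to 82.2 CPM in A and 3.54 to 47.8 CPM in N clones, and in animal 20 the order was turned, with 16.8 CPM in the A clone and 77.4 CPM in the N clone. A fit on animal 22 alone called GAS1 (log2 fold change 2.70, adjusted p = 0.0470 in edgeR) among 153 of 13305 genes. The fit without animal 20 also called GAS1 (1.67, adjusted p = 0.0455 in edgeR), among 2436 of 12909 genes. The estimate was 0.41 without animal 22 (adjusted p = 0.750 in edgeR), 0.55 in counts summed per animal and condition (adjusted p = 0.790) and 0.88 without the 4 clones of highest KRT8 (adjusted p = 0.377).

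**Figure D2:**
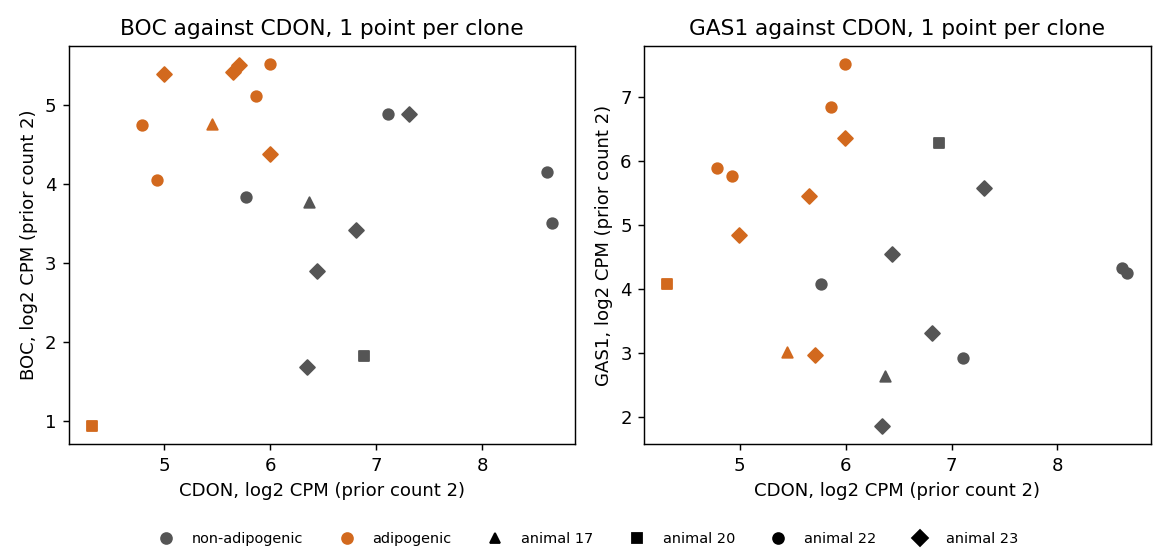
BOC (left) and GAS1 (right) against CDON, both axes in log2 CPM with a prior count of 2, 1 point per clone. Colour gives the clone type and shape the animal. A clones lie to the left, at lower CDON, and all A clones except 20-106 have a larger difference of BOC minus CDON than any N clone.

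The balance between the co-receptors was examined within each clone as a difference of log2 CPM, a comparison chosen after the values were seen and given no test. BOC minus CDON ran from -5.15 to -1.94 with a median of -3.47 in N clones, and from -3.38 to 0.39 with a median of -0.58 in A clones. A total of 9 of 10 A clones lay above every N clone, and the exception was clone 20-106. GAS1 minus CDON ran from -4.47 to -0.61 in N and from -2.73 to 1.52 in A clones, with medians of -3.61 and 0.11 and 8 A clones above every N clone. Each of these differences contains CDON, which was itself called lower in A clones. GLI2 minus GLI3 and GLI1 minus GLI3, computed in the same way, each had 0 A clones above every N clone. For GLI2 minus GLI3 the highest N value, -1.65, was that of clone 22-18. Its medians were -6.99 in N and -4.44 in A clones. For GLI1 minus GLI3 the medians ran the other way, at -4.63 in N and -5.98 in A clones.

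PTCH1, both receptor and target of the pathway, was detected in all clones with 41 to 225 counts. It held 3.06 to 11.4 CPM with a median of 5.39 in N clones and 2.79 to 6.11 CPM with a median of 4.29 in A clones. The ranges overlapped, and the highest value was that of N clone 17-23. The log2 fold change was -0.36 (SE 0.21, adjusted p = 0.228 in edgeR). The difference in mean log2 CPM was -1.99 in animal 17 and -0.66 in animal 20, each from 1 pair of clones, and -0.13 and -0.06 in animals 22 and 23. PTCH1 overlaps the non-coding gene LOC132345987 in the ARS-UCD2.0 annotation, which is not listed in the counts.

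SMO, the signal transducer that PTCH1 inhibits, was the other member called. N clones ran from 24.9 CPM in clone 23-74 through a median of 31.2 to 60.6 CPM in clone 17-23, and A clones from 37.2 CPM in clone 23-108 through a median of 43.2 to 51.3 CPM in clone 22-11. The 20 values overlapped only through N clones 17-23 and 22-18, the latter at 41.7 CPM. Means were 34.3 ± 10.3 CPM for N and 44.6 ± 4.65 CPM for A (SD over 10 clones each). SMO was 1.33-fold higher in A clones (log2 fold change 0.41, SE 0.11, adjusted p = 0.0192 in edgeR). Its difference in mean log2 CPM was 0.69, 0.51 and 0.49 in animals 20, 22 and 23, and -0.54 in animal 17. Leaving out any 1 clone kept the adjusted p between 0.0028 and 0.0392, but the call was lost without the animal block (0.0507), without N clones 22-5 and 22-9 (0.0665), without animal 22 (0.159), without animal 23 (0.277) and in counts summed per animal and condition (log2 fold change 0.28, adjusted p = 0.579, edgeR).

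**Figure D3:**
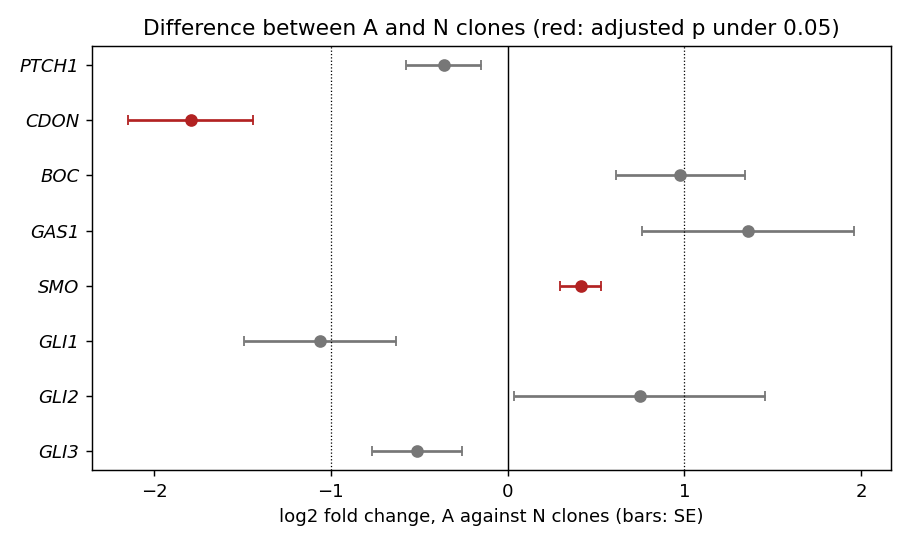
Log2 fold change of A against N clones (x axis) for each tested member, with bars of 1 SE from edgeR. Points in red passed an adjusted p of 0.05, dotted lines mark a 2-fold change, and CDON at -1.79 is the only member past both.

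GLI1, the activator whose transcription follows pathway activity, was low in all clones, with 2 to 58 counts. It held 0.281 to 3.04 CPM with a median of 1.43 in N clones and 0.0979 to 1.77 CPM with a median of 0.442 in A clones. The ranges overlapped, although 3 A clones had less GLI1 than any N clone. The log2 fold change was -1.06 (SE 0.43) and missed the threshold (adjusted p = 0.0856 in edgeR), as it did with each single clone left out (0.0518 to 0.150). The difference was negative in 4 of 4 animals, from -3.66 in animal 20, where the A clone had 2 counts, to -0.37 in animal 23.

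GLI2, the main activator upon signalling, depended on a single library. It held 0 to 1.50 CPM in 9 N clones and 8.88 CPM, 349 counts, in N clone 22-18. In A clones it held 0.612 to 3.08 CPM with a median of 1.95, against a median of 0.340 CPM in N clones. With all clones the log2 fold change was 0.75 (SE 0.71, adjusted p = 0.470 in edgeR). Without N clone 22-18 it was 1.89 (adjusted p = 0.0181 in edgeR), past both thresholds. In animal 22, which holds that clone, mean log2 CPM was 1.50 higher in A clones, while the edgeR fit on the counts of that animal alone gave a log2 fold change of -0.20.

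GLI3, which acts mainly as a repressor in the absence of ligand, held 28.1 to 115 CPM with a median of 52.7 in N clones and 32.1 to 62.4 CPM with a median of 41.9 in A clones. The A range lay within the N range, whose upper end was set by clones 22-9, 22-5 and 23-10 at 115, 98.9 and 96.7 CPM. The log2 fold change was -0.51 (SE 0.25, adjusted p = 0.156 in edgeR), and -0.13 (adjusted p = 0.711) without clones 22-5 and 22-9. LOC100848995, which overlaps GLI3 in the ARS-UCD2.0 annotation, had 9 to 75 counts in a clone.

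HHIP, the decoy receptor and target gene, had 0 counts in all 20 clones. A limit of 3 counts over the pooled libraries corresponds to 0.0149 CPM in N and 0.0164 CPM in A clones, for counting error only. Its difference between groups was not detectable at this depth. In the ARS-UCD2.0 annotation HHIP overlaps the protein-coding gene LOC132342669, which is not listed in the counts. How reads on overlapping genes were assigned is not given in the sources used here.

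**Figure D4:**
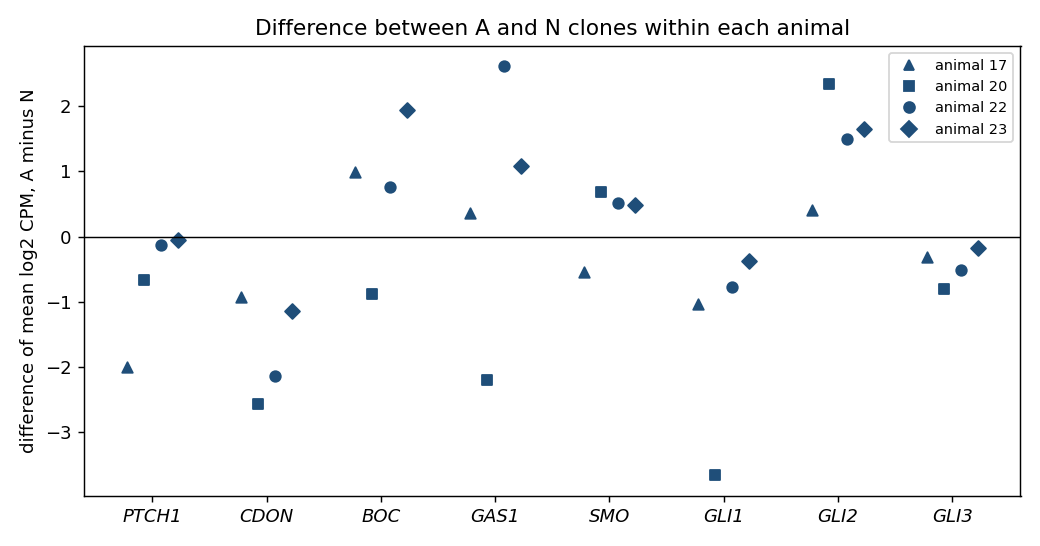
Difference of mean log2 CPM between A and N clones (y axis, prior count 2) within each of the 4 animals, for the 8 tested members. Animals 17 and 20 give 1 clone per group and animals 22 and 23 give 4. CDON, PTCH1, GLI1 and GLI3 were below 0 and GLI2 above 0 in every animal (though GLI2 was -0.20 in an edgeR fit of animal 22 alone), while BOC, GAS1 and SMO changed sign in 1 animal.

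Whether the difference between clone types depended on the animal was tested in the 16 clones of animals 22 and 23. The interaction called 4 of 12915 genes, or 0.031%, and 0 members (edgeR's quasi-likelihood test, with 1170 genes at an unadjusted p under 0.05, and 116 genes and 0 members called by DESeq2). Its largest estimates among members were -1.77 for GAS1 (SE 1.04, adjusted p = 0.645), 1.62 for GLI2 (SE 1.57, adjusted p = 0.798) and 1.31 for CDON (SE 0.71, adjusted p = 0.614). The contrast of animal 23 with animal 22 at a given clone type called 18 of 12900 genes, or 0.14%, and again 0 members (1401 genes at an unadjusted p under 0.05 in edgeR, and 274 genes and 0 members called by DESeq2). GLI1 had the largest estimate there, 1.47 higher in animal 23 (SE 0.48, adjusted p = 0.262 in edgeR).

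Levels of the members were compared with each other within each group of 10 clones over 28 pairs per group. Pearson's r and Spearman's rho of each pair gave 112 correlations, which were adjusted together. None passed an adjusted p of 0.05. For Pearson's r alone, 8 correlations among the 28 pairs per group had an unadjusted p under 0.05 (permutation test, two-sided). The largest was that of the pathway targets PTCH1 and GLI1 in N clones (r = 0.82, permutation p = 0.0025, adjusted p = 0.203; rho = 0.84, permutation p = 0.0037, adjusted p = 0.203). It was 0.82 without the 2 clones farthest from the median of PTCH1 and 0.83 within animals 22 and 23. In A clones it was 0.05 (rho = 0.09). GLI2 and GLI3 ran in opposite directions in N clones (r = -0.77, permutation p = 0.0054, adjusted p = 0.203; rho = -0.75, permutation p = 0.0174, adjusted p = 0.266), with r = -0.64 without clones 22-5 and 22-18 and -0.78 within animals 22 and 23. In A clones r was 0.04 (rho = -0.02). GLI3 and CDON had r = 0.74 in N and 0.72 in A clones (permutation p = 0.0149 and 0.0209, adjusted p = 0.266 for each). In N clones without 22-5 and 22-9 it was 0.38. BOC and CDON had r = 0.30 in N and 0.69 in A clones (permutation p = 0.403 and 0.0176, adjusted p = 0.695 and 0.266). In A clones without 22-121 and 20-106 it was 0.08. The difference of correlations between the groups was not tested.

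Transcripts of the ligands themselves were at or near the limit of detection, and all 3 ligand genes were left out by the filter. SHH had 1 count in each of 2 A clones and 0 elsewhere. IHH was detected in 2 of 10 N clones, with at most 6 counts, and in 8 of 10 A clones, with at most 10 counts (adjusted p = 0.0888 in an edgeR fit without the filter). DHH had 1 or more counts in all clones, and at most 38 in N and 7 in A clones. Of 9 genes for ligands and their release, 3 were tested and 0 called. Their median log2 fold change was -0.88, but it turned to 0.12 without N clones 22-5 and 22-9 and to 0.11 in limma-voom, and it was above 0 in 7 of 39 alternatives. Of 5 genes for other receptors and surface modulators, 3 were tested and 0 called (median 0.15).

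Of 23 genes that act between SMO and the GLI proteins, all were tested, 1 was called higher and 2 lower, which is 13.0% called against 20.6% of all genes (median log2 fold change -0.04). SUFU, which holds GLI proteins in the cytoplasm, had a log2 fold change of -0.22 (adjusted p = 0.367 in edgeR), and KIF7, a kinesin of the cilium tip, one of 0.05 (adjusted p = 0.804). ARRB1, a beta-arrestin, passed both thresholds. It held 0.194 to 8.20 CPM in N and 4.95 to 25.8 CPM in A clones, with medians of 1.86 and 10.5, and 7 A clones exceeded every N clone. It was 5.64-fold higher in A clones (log2 fold change 2.50, SE 0.50, adjusted p = 0.0038 in edgeR), with a log2 fold change of 1.88 without animal 23 (adjusted p = 0.116). Its paralog ARRB2 fell by 0.69 (SE 0.18, adjusted p = 0.0150) and IQCE, an anchor of ciliary complexes that transmit the SMO signal, fell by 0.41 (SE 0.12, adjusted p = 0.0214), both named after their values were seen.

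Genes of the primary cilium, the organelle in which SMO acts, were called lower more often than higher. Of 36 genes, all tested, 9 were lower and 0 higher in A clones. That is 25.0% called against 20.6% of all genes, and 25.0% called lower against 10.3% of all genes. Their median log2 fold change was -0.21 against -0.01 over all genes, and 28 of 36 estimates were below 0. DESeq2 with the animal block called 11 lower and 1 higher, and without N clone 22-17 edgeR called 9 lower and 2 higher. RPGRIP1L, a protein of the ciliary transition zone, held 8.88 to 26.2 CPM in N and 4.18 to 8.06 CPM in A clones. These ranges did not overlap, and the share of all genes separated in this way is not given here. RPGRIP1L was named for its adjusted p and fold change. It fell by 1.07 (SE 0.18, adjusted p = 0.0014 in edgeR) and was the only cilium gene past both thresholds, with an adjusted p of 0.0812 without animal 23. Among the others, named after their values were seen, were WDR19 and IFT172 of the intraflagellar transport complexes, which fell by 0.90 (SE 0.16, adjusted p = 0.0017) and 0.67 (SE 0.13, adjusted p = 0.0026). Without N clone 22-5 alone, 14 cilium genes were lower, and 6 without N clone 17-23. Without N clones 22-5 and 22-9, 9 were lower, and 5 with A clones 22-11 and 22-16 also left out. Without the clones of animal 23, 0 were called, although 29 of 36 estimates were below 0. The 4 called proliferation genes were also lower in A clones, and their part in this result was not tested. RPGRIP1L overlaps FTO in the ARS-UCD2.0 annotation, and FTO fell by 0.34 (SE 0.08, adjusted p = 0.0081 in edgeR).

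**Figure D5:**
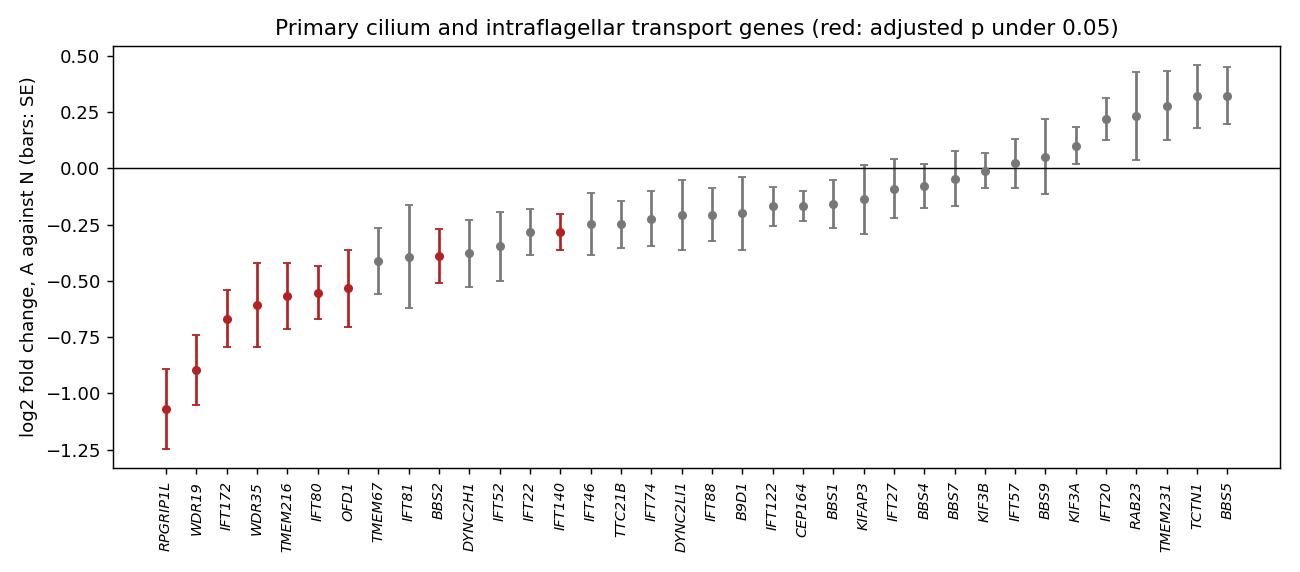
Log2 fold change of A against N clones (y axis, bars of 1 SE) for 36 genes of the primary cilium, ordered by value. The 9 genes in red passed an adjusted p of 0.05, and all of them were below 0.

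Of 16 genes known as GLI targets in other tissues, 10 were tested, 3 were called higher and 1 lower in A clones, which is 40.0% called against 20.6% of all genes (median log2 fold change 0.37). CCND2, a cyclin of the G1 phase, was 2.43-fold higher (log2 fold change 1.28, SE 0.33, adjusted p = 0.0130 in edgeR), with 11.1 to 65.1 CPM in N and 39.9 to 120 CPM in A clones. The apoptosis inhibitor BCL2 was 2.93-fold higher (1.55, SE 0.30, adjusted p = 0.0033), with 0.490 to 2.50 CPM in N and 2.20 to 7.44 CPM in A clones. PTHLH, which encodes a parathyroid hormone-related protein, had a log2 fold change of 3.33 (SE 0.88, adjusted p = 0.0156), but 1.40 (adjusted p = 0.251) without the animal block and 1.38 (adjusted p = 0.730) with the block in counts summed per animal and condition, and its ranges of 0 to 4.04 CPM in N and 0.649 to 3.83 CPM in A clones overlapped. The nuclear receptor gene NR2F2 fell by 1.22 (SE 0.24, adjusted p = 0.0033), with 41.4 to 137 CPM in N and 9.64 to 95.8 CPM in A clones. NR2F2 was not called without animal 22 (adjusted p = 0.0658) or without animal 23 (0.0636), and BCL2 and CCND2 were not called without animal 23 (0.140 and 0.133, edgeR). PTCH1 and GLI1 were not called.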

How the data were processed

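RNA-seq libraries of 10 A and 10 N bovine MSC clones were used, grouped by their sample labels. The table deposited by the authors holds raw counts, 1 column per clone. The submitters' processing notes name bcl2fastq 2.20, Trimmomatic 0.36, STAR 2.5.2b and featureCounts of Subread 1.5.2, with the ARS-UCD1.2 build. The strand setting and the treatment of reads on overlapping genes are not given in the sources used here. The 1 row without a gene name took 0.113% to 0.333% of a clone's counts and was removed. Columns that belong to no sample of the series numbered 0.

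A and N clones were compared in R 4.3.3 with edgeR 4.0.16 (TMM normalization, default low-count filter by condition, animal as a block, robust quasi-likelihood F test, Benjamini-Hochberg adjustment over all genes tested). A gene was called at an adjusted p under 0.05, with a second count of called genes that changed 2-fold or more. Log2 CPM used a prior count of 2. Pairing came from the animals: deviations of A and N clones of animals 17, 20, 22 and 23 from their group means correlated at 0.253, 0.192, 0.241 and 0.440. Permutation tests drew 100000 resamples in scipy 1.17.1. Scripts were tested on simulated data.

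The members and lists were chosen with earlier results of these data known. All members were named, and in each list SHH, IHH, DHH, SUFU and KIF7 and up to 5 genes past both thresholds. The results of 2 genes of the lists are not reported here, and the lists are counted without them. Overlapping genes were read from a RefSeq table of ARS-UCD2.0, which differs from the build of the files, so no coordinates are given. The alternatives changed the normalization (DESeq2 size factors, upper quartile), the filter (none, or a minimum of 10 counts in all clones), the model (no animal block, limma-voom 3.58.1 with a random animal effect, DESeq2 1.42.0 with the block and without it, no robust dispersion, a 2-fold null) and the samples (sums per animal and condition, 1 animal alone, and each animal or clone left out), besides a prior count of 0.5 for correlations, and, added after seeing the data, the clones of highest KRT8 left out.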

Additional observations from a re-analysis of the deposited data

Results flagged for a closer look

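In 1 of 36 groups of 10 values examined (the tested members, and the named pathway genes of the report, in A and in N clones), the gap between the most extreme clone and its neighbour relative to the whole range of log2 CPM exceeded Dixon's critical value for 10 samples, and chance alone gives about 1 in 20. This was BOC in A clones, where clone 20-106 was lowest at 1.81 CPM and the next clone, 22-121, was at 16.4 CPM, a gap of 0.679 of the range. The N clone of the same animal, 20-15, was also low, at 3.43 CPM.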

How the results depend on the processing

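CDON kept its direction under all 39 alternatives and lost its call in 4 of them, the counts summed per animal and condition (adjusted p = 0.240 in edgeR), the test against a 2-fold change, animal 22 alone (adjusted p = 0.115) and animal 23 left out. SMO kept its direction and lost its call in 9. PTCH1, GLI1 and GLI3 kept their directions wherever they were tested and were called in none, and GLI1 was tested in only 36 of the 39. BOC gained a call in 8 and GAS1 in 6, and the cause was not tested. ARRB1, RPGRIP1L, WDR19, IFT172 and BCL2 lost their calls in 4 alternatives each, CCND2 in 5, NR2F2 in 6 and PTHLH in 9, with no change of direction, and each of them in the summed counts and without animal 23. The number of members called was 2 to 4 with single clones left out. It was 1 without the animal block, that is, with no replicate block, 4 in DESeq2 with or without the block, 4 without animal 20, 1 in animal 22 or animal 23 alone, 1 without animal 22, and 1 without N clones 22-5 and 22-9 with or without A clones 22-11 and 22-16 left out. Without animal 23, in the summed counts and in the test against a 2-fold change it was 0.

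Over all genes, the summed counts called 0 genes in edgeR (2243 at an unadjusted p under 0.05), the test against a 2-fold change 55, animal 22 alone 153, animal 23 alone 800, the fit without animal 22 1471, that without animal 23 32, and that without the 4 clones of highest KRT8 1393. Genes called at least 2-fold were 1276 without the filter, 365 with at least 10 counts in every clone, 0 in the summed counts, 55 in the test against a 2-fold change, 137 and 483 in animals 22 and 23 alone, and 22 without animal 23. Cilium genes called lower were 0 in the summed counts, in the test against a 2-fold change, in animal 22 alone and without animal 23, 5 in animal 23 alone and without the 4 clones of highest KRT8, and 6 to 14 with single clones left out. The interaction called 116 genes in DESeq2 and 0 to 11 with single clones left out, and animal 23 against animal 22 called 274 in DESeq2.

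Estimates that turned were not called. GLI2 was -0.20 in animal 22 alone. SUFU was 0.014 in the summed counts. KIF7 was -0.15 in the summed counts, -0.11 without animal 22, -0.042 and -0.063 in the fits without 2 and 4 clones of high KRT8, and -4.0e-05 to 0.16 with single clones left out. With single clones left out, the interaction ran from -0.14 to 0.22 for PTCH1, from -0.15 to 0.074 for SMO and from -1.23 to 2.34 for GLI2. The median log2 fold change of the members was below 0 in 8 of 39 alternatives, that of the other receptors in 1, and that of the genes between SMO and the GLI proteins was above 0 in 2. Depth limits GLI1, with as few as 2 counts in a clone, GLI2 and the ligand genes.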

Other observations

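Other pathway genes that the filter removed were read from the fit without it. SCUBE2, a secreted protein that helps release Hedgehog ligands, had 45 counts in all N clones together and 350 in A clones (log2 fold change 3.76, adjusted p = 0.0039 in edgeR's quasi-likelihood test without the filter), with counts in 6 of 10 N and 10 of 10 A clones. FOXF1, a mesenchymal target of the pathway, had 38 and 153 counts (log2 fold change 2.03, adjusted p = 0.0191), and 8 A clones exceeded every N clone in CPM. The fit without the filter called 2755 of 23383 genes, 1612 of them higher in A clones. SCUBE2 and FOXF1 were picked with their values in view, and the share of all genes with such separation is not given here.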
